A study of Mus musculus with 12 samples.

Results

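Complement components and regulators were followed in the RNA of tumor cells sorted from mouse brain, with 9 genes named by their role: the convertase components *C3*, *C4b* and *Cfb*, the regulators *Serping1*, *Cd55* and *Cd59a*, and the 3 chains of C1q, *C1qa*, *C1qb* and *C1qc*. A gene was taken where a probe set of the array carried its symbol and no other, and 8 of the 9 had one, out of 19938 genes so named. *C3* had none in the annotation used and was not analysed here. Each of the 8 had a single probe set, so no choice among probe sets was needed.

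The cells came from one parental pool of neural progenitors (subventricular zone, Ink4a/Arf null mice) given human EGFRvIII, the constitutively active EGFR variant. Both groups therefore carried the Ink4a/Arf loss and EGFRvIII. In pEGFR-Hi the receptor was highly phosphorylated and in pEGFR-Lo weakly, and each group was 1 line passaged through syngeneic mice. The lines were injected into the brains of FVB mice, 2 µl at 200000 cells/µl, and 6 mice of each were taken near the median survival of their own group. Line and time after injection thus differed together, and the 6 values of a group are 6 mice, not 6 lines. ZsGreen-tagged cells were sorted by FACS after papain dissociation, a Percoll step against myelin and red cells, and exclusion of DAPI-positive dead cells. The age of the mice was not given in the sources used here. RNA was measured on 1 array per mouse, and the number of arrays limits the precision.

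Complement is a cascade of blood and tissue proteins that tag surfaces for uptake or lysis. C1q with the proteases C1r and C1s starts the classical pathway, which cleaves C4 and C2 into a C3 convertase, while factor B (*Cfb*) supplies the protease of the alternative pathway convertase. C1 inhibitor (*Serping1*) blocks C1r and C1s, CD55 speeds the decay of convertases, and CD59 stops assembly of the membrane attack complex. In the brain C1q is known as a product of microglia, whereas C4, factor B and C1 inhibitor can be made by many cell types, often under interferon or other inflammatory signals.

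Promoters are shown for *C1qb* and *C1qc* as members that start the classical pathway, for *C1ra* as a called gene with a match to a searched motif, for its neighbour *C1rb*, whose RNA was not analysed here, to show the same match, and for *Cd59a* as the one member with a match among those in the table. They are from RefSeq on GRCm38.p6, each 250 bases before to 50 bases after the annotated start. The table held 5 of the 9 members (*C3*, *Cd55*, *Cd59a*, *C1qb*, *C1qc*). *C4b*, *Cfb*, *Serping1* and *C1qa* had no entry. Both strands were searched for the interferon-stimulated response element (ISRE, GAAANNGAAA, read as TTTCNNTTTC on the other strand) and for the gamma-activated site of STAT proteins (GAS, TTCNNNGAA, the same on both strands). The letters of both motifs can overlap, as they did in *Colec11*. Capitals mark a match. The stretch in capitals in *C1ra* (chr6:124512371-124512670, plus strand) and its near-identical neighbour *C1rb* (chr6:124570180-124570479, plus strand) is a GAS, that in *Cd59a* (chr2:104095551-104095850, plus strand) is an ISRE, and *C1qb* (chr4:136886151-136886450, minus strand) and *C1qc* (chr4:136892865-136893164, minus strand) held neither.
C1ra: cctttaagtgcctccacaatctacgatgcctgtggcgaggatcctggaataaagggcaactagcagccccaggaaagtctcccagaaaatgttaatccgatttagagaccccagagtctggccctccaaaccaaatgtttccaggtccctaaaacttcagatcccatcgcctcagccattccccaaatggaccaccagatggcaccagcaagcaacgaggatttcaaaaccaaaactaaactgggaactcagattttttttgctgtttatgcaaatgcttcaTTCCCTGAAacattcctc
C1rb: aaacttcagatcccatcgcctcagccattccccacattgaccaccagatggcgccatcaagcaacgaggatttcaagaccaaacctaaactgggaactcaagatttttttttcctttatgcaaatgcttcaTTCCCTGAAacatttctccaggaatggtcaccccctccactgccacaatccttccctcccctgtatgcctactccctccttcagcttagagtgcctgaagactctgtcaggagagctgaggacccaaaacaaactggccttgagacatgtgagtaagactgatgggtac
Cd59a: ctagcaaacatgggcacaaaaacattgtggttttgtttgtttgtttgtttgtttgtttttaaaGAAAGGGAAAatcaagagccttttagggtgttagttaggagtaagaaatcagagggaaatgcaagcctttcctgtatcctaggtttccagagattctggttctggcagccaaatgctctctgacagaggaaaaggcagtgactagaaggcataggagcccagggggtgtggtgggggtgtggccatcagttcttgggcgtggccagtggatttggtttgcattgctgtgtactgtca
C1qb: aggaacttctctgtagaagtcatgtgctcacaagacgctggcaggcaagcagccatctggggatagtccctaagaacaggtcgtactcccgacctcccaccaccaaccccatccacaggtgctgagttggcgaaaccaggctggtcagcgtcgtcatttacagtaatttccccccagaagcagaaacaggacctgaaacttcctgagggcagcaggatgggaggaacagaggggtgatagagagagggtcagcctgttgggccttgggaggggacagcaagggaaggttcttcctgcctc
C1qc: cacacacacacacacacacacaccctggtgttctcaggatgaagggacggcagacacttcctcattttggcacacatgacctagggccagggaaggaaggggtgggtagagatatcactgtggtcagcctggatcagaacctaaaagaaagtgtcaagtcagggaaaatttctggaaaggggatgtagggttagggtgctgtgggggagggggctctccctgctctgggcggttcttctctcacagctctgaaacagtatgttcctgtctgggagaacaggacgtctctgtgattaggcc
Of all 32851 promoters in the table, 3.44% held the ISRE letters and 8.3% the GAS letters. Of 46 promoters searched for 5 members and 37 other complement genes, 4 held an ISRE (*Cd46*, *Cd59a*, *Colec11*, *Vtn*) and 9 a GAS. The GAS promoters were those of *C1ra*, *C1rb*, *C7*, *C8a*, *Cfhr2*, *Colec11*, *Cpn2*, *Masp2* and *Vtn*. Of these genes only *C1ra* was called, and *C1rb* and *Cfhr2* were not measured. *Susd4*, also a called gene, held neither motif. The GAS started at 32 from the annotated start in *C1ra* and at -119 in *C1rb*. A match is a description of these letters and was not tied to any RNA value.

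Values are log2 RMA signals, a scale on which 1 unit is 2-fold within a gene and on which the levels of different genes cannot be compared. A gene was called where limma gave a Benjamini-Hochberg adjusted p under 0.01 over all genes and at least 2-fold. A gene was taken as above background where its mean exceeded 4.10, the level that 95% of 1027 olfactory receptor genes stay under in their means, a family expressed mainly in the nose. The array medians lay between 4.81 and 4.88. All 8 measured neural progenitor markers were above background, among them *Sox2* (9.49 ± 0.17 in pEGFR-Hi and 8.99 ± 0.14 in pEGFR-Lo, SD, n = 6), *Nes* (8.78 ± 0.11 and 8.73 ± 0.27) and *Olig2* (9.03 ± 0.17 and 8.77 ± 0.18). Of the 8, 0 were called toward pEGFR-Hi and 1 toward pEGFR-Lo, beside 3.99% and 5.06% of all genes. The 1 was *Fabp7* (2.58-fold, adjusted p 2.23e-05), and the median difference of the 8, pEGFR-Hi minus pEGFR-Lo, was -0.11. *Cdkn2a*, the Ink4a/Arf locus, read 5.26 ± 0.13 and 5.36 ± 0.14, but where its probes lie relative to the deletion was not known, so it checks nothing. Replicates 3 and 6 of pEGFR-Lo stood apart from the other 4 in interferon-stimulated genes, and results that rest on them are given with and without them.

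Among the 8 measured members, *Cfb* and *Serping1* were higher in pEGFR-Hi and none was higher in pEGFR-Lo. Over all genes 3.99% were called higher in pEGFR-Hi and 5.06% higher in pEGFR-Lo. SAM gave the same counts of members, 2 and 0, beside 4.02% and 5.06% of all genes. At an unadjusted p under 0.05 the counts were 3 and 0, beside 23% and 19.8% of all genes. The groups did not overlap for *Cfb* and *Serping1*, 2 of 8 with pEGFR-Hi above, beside 12.2% of all genes with pEGFR-Hi above and 11.1% with pEGFR-Lo above. The median log2 difference of the 8, pEGFR-Hi minus pEGFR-Lo, was 0.0048, beside 0.010 for all genes. Without pEGFR-Lo replicates 3 and 6 the counts stayed at 2 and 0, with 3.7% and 4.89% of all genes called.

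*Cfb*, the factor B gene, had the largest difference among the members. In pEGFR-Hi its lowest, median and highest values were 6.86, 7.30 and 9.11, and in pEGFR-Lo 5.55, 5.62 and 5.98. The groups did not overlap, and pEGFR-Hi replicates 5 and 3 (9.11 and 8.55) lay well above the other 4 of their group. The means were 7.70 ± 0.91 and 5.68 ± 0.16, a difference of 2.01 (95% interval 1.35 to 2.67) or 4.03-fold, at an adjusted p of 7.59e-05. The mice of pEGFR-Lo spanned a narrow range, with replicate 3 lowest at 5.55 and replicate 6 at 5.59. Without them the difference was 1.95 at an adjusted p of 9.15e-04.

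*Serping1*, which encodes C1 inhibitor, was 2.97-fold higher in pEGFR-Hi. Its lowest, median and highest values were 10.51, 10.63 and 11.10 in pEGFR-Hi and 8.27, 9.37 and 9.68 in pEGFR-Lo, again with no overlap. The spread lay on the other side from that of *Cfb*: pEGFR-Hi was tight and pEGFR-Lo was wide, with replicates 6 and 3 lowest (8.27 and 8.46). The means were 10.71 ± 0.23 and 9.14 ± 0.64, a difference of 1.57 (1.08 to 2.06) at an adjusted p of 4.60e-05. Without replicates 3 and 6 it was 1.18 at an adjusted p of 1.45e-05, still a call.

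*C4b*, a component of the classical pathway C3 convertase, was not called. Its values ran from 8.30 over a median of 8.54 to 8.85 in pEGFR-Hi and from 6.95 over 8.23 to 8.80 in pEGFR-Lo. The groups overlapped, and the low end of pEGFR-Lo was replicates 3 and 6 (6.95 and 7.07), while replicates 2, 4 and 5 (8.36, 8.80 and 8.63) lay within the pEGFR-Hi range. The difference of means, 8.58 ± 0.22 against 7.99 ± 0.79, was 0.59 (0.0013 to 1.19) at an adjusted p of 0.116. Without replicates 3 and 6 it was 0.11 (-0.21 to 0.42) at an adjusted p of 0.658, so the 2 mice carried most of it. The near-identical paralog *C4a*, whose probes may share signal with *C4b*, read 5.34 ± 0.12 and 5.08 ± 0.25 (adjusted p 0.0869).

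The membrane regulators among the members were at the floor of the array. *Cd55* ran from 1.92 to 2.16 in pEGFR-Hi and from 1.84 to 2.21 in pEGFR-Lo, with no array above background. *Cd59a* ran from 2.69 to 3.95 and from 2.81 to 4.22, and 1 array, pEGFR-Lo replicate 3, passed the background level. No fold is given for either. A signal at the floor says only that these probe sets did not detect the RNA.

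**Figure D1:**
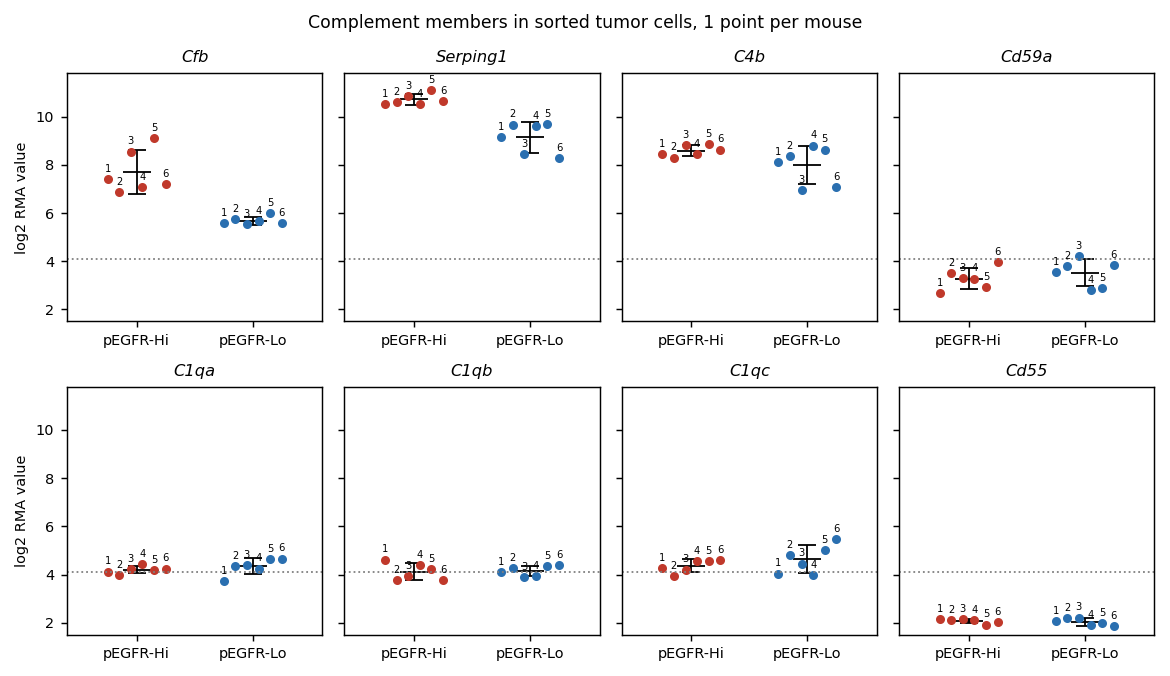
Log2 RMA value of each of the 8 measured members (vertical axis) in the 6 pEGFR-Hi mice (red) and the 6 pEGFR-Lo mice (blue). Points are mice with their replicate number, the bars are mean and SD, and the dotted line is the background level of 4.10. *Cfb* and *Serping1* separate the groups, *C4b* overlaps with pEGFR-Lo replicates 3 and 6 lowest, the C1q chains sit at the background line, and *Cd55* and *Cd59a* sit under it.

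The 3 C1q chains, the members attributed to microglia, were close to background and did not pass the test in either direction. *C1qa* ran from 3.97 over a median of 4.21 to 4.42 in pEGFR-Hi and from 3.74 over 4.37 to 4.66 in pEGFR-Lo, a difference of means of -0.14 (-0.43 to 0.15). *C1qb* ran from 3.75 over 4.09 to 4.62 and from 3.88 over 4.19 to 4.39, a difference of -0.04 (-0.36 to 0.28) that turned to 0.0036 when quantile normalization was run again. *C1qc* ran from 3.95 over 4.42 to 4.61 and from 3.98 over 4.64 to 5.46, a difference of -0.27 (-0.73 to 0.20). The groups overlapped for each chain, and the adjusted p-values were 0.479, 0.890 and 0.400. Arrays above background numbered 5 and 5 for *C1qa*, 3 and 3 for *C1qb* and 5 and 4 for *C1qc*, giving pEGFR-Hi first. The widest interval, that of *C1qc*, reached 0.73 toward pEGFR-Lo, and near the floor a log2 difference understates a change. In sorted material of this kind, fewer cells of a type and less RNA per cell cannot be told apart.

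The highest *C1qc* and *C1qa* values came from the same 2 mice of pEGFR-Lo, replicate 6 (5.46 and 4.66) and replicate 5 (5.01 and 4.65). The highest *C1qb* value, 4.62, came from pEGFR-Hi replicate 1. In pEGFR-Lo replicate 6 the receptor adaptor *Tyrobp* (5.05), expressed in microglia and other leukocytes, was at its highest of the 12 arrays too. Of the other markers above background in the mean, *P2ry12* (6.81) also peaked there. The rest did not: *Cx3cr1* (5.49) peaked in pEGFR-Lo replicate 2, *Tmem119* (5.49) in replicate 4 and *Trem2* (5.25) in replicate 5. *Cd68* (7.04) peaked in pEGFR-Hi replicate 5 and *Cd14* (6.19) in pEGFR-Hi replicate 3. Further markers passed background on some arrays but not in the mean. Of these, the lysosomal membrane gene *Laptm5* (5.14), *Fcer1g* (4.42) and *Lyz2* (4.39) peaked in pEGFR-Lo replicate 6. *Ctss* (4.52) and *Spi1* (4.49) peaked in pEGFR-Lo replicate 5, *Ly86* (4.56) in replicate 2 and *Cd163* (4.32) in replicate 3. *P2ry13* (4.26) peaked in pEGFR-Hi replicate 5. Over the 24 measured microglia and macrophage markers, the mean per array ran from 3.83 to 3.90 in pEGFR-Hi and from 3.76 to 4.15 in pEGFR-Lo, and the log2 of the summed level from 8.80 to 8.98 and from 8.72 to 9.12. Without pEGFR-Lo replicates 3 and 6 the *C1qc* difference was -0.10 (-0.54 to 0.34). The part of these cells in the C1q values was not tested.

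Of the 24 measured microglia and macrophage markers, 7 were above background in the mean over all arrays. *Csf1r*, the CSF1 receptor (3.54 ± 0.15 and 3.74 ± 0.21), *Aif1*, which encodes IBA1 (3.43 ± 0.12 and 3.55 ± 0.37), and *Ptprc*, which encodes CD45 (2.91 ± 0.15 and 2.85 ± 0.12), were under the background level on every array. The fractalkine receptor gene *Cx3cr1* (5.28 ± 0.08 and 5.13 ± 0.30), *Trem2* (5.02 ± 0.17 and 5.05 ± 0.18), *Tmem119* (4.56 ± 0.21 and 4.91 ± 0.49) and *Tyrobp* (4.20 ± 0.17 and 4.44 ± 0.41) were above it and not called. Of the 24, 2 were called toward pEGFR-Hi and 1 toward pEGFR-Lo, beside 3.99% and 5.06% of all genes. The median difference was -0.12. *P2ry12*, an ADP receptor gene, was the one higher in pEGFR-Lo, from 5.69 to 6.81 there against 4.32 to 5.60, or 3.36-fold (adjusted p 6.11e-06). *Cd68*, a lysosomal gene (2.36-fold, adjusted p 8.35e-06), and the endotoxin co-receptor gene *Cd14* (at least 3.12-fold, pEGFR-Lo being at background, adjusted p 2.36e-07) were higher in pEGFR-Hi. The called markers went both ways, and at these shares so few calls say little about the list. In limma *Cd163* (difference -0.85, adjusted p 9.84e-04) and *Fcrls* (0.41, adjusted p 0.00468) passed the adjusted p limit and missed only 2-fold. Both were under background in the mean of both groups. *Csf1r*, *Aif1* and *Ptprc* stayed under background, while *Cx3cr1*, *Trem2*, *Tmem119*, *P2ry12* and *Cd68* lay above it on all 12 arrays.

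**Figure D2:**
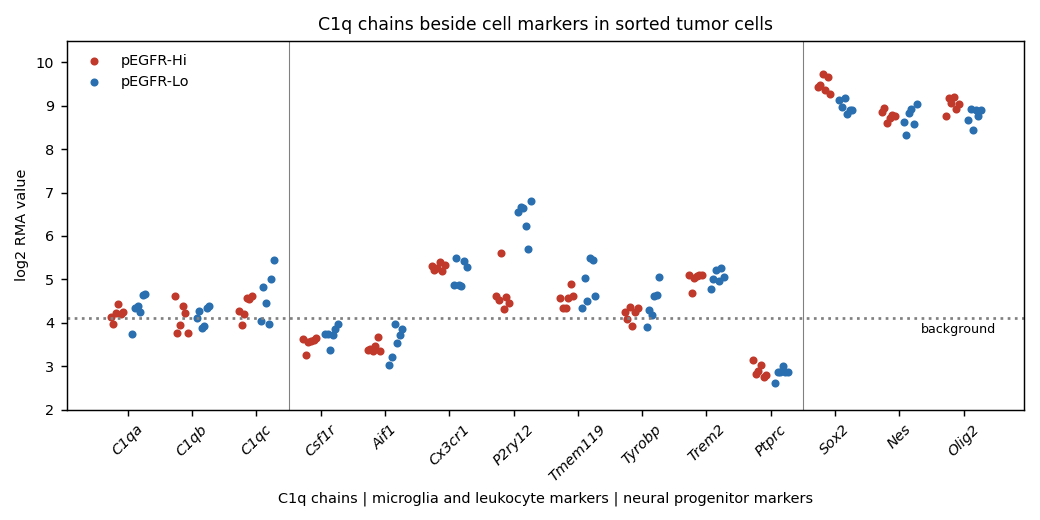
Log2 RMA value (vertical axis) of the 3 C1q chains, 8 microglia and leukocyte markers and 3 neural progenitor markers, with 1 point per mouse (pEGFR-Hi red, pEGFR-Lo blue) and the background level of 4.10 dotted. The C1q chains lie around the line in both groups, *Csf1r*, *Aif1* and *Ptprc* lie under it, *P2ry12* separates the groups, and the progenitor markers lie between 8.32 and 9.72; levels of different genes are not to be compared.

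Set side by side, 2 of the 5 measured members attributed to tumor cells and 0 of the 3 C1q chains were called. Both calls were toward pEGFR-Hi, beside 3.99% of all genes called that way and 5.06% toward pEGFR-Lo. At these shares 0 calls among 3 genes says little about the chains. The median difference was 0.59 over the 5, of which 3 were above background, and -0.14 over the 3 chains. Without pEGFR-Lo replicates 3 and 6 these medians were 0.11 and -0.048. The mean over the 5 ran from 6.24 to 6.78 in the pEGFR-Hi mice and from 5.32 to 5.96 in the pEGFR-Lo mice, while the mean over the 3 chains ran from 3.89 to 4.46 and from 3.96 to 4.83. *Cd55* and *Cd59a* were not above background, so the arrays gave no signal by which to place them in tumor cells. No test of the difference between the 2 sets was made.

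Another 45 complement genes were measured, and 6 of them were called: 2 toward pEGFR-Hi and 4 toward pEGFR-Lo. Over all genes 3.99% were called toward pEGFR-Hi and 5.06% toward pEGFR-Lo, so the 2 of 45 lay near the share of all genes. The median difference of the 45 was 0.034, and 27 of them were not above background in the mean. By role, 2 of 13 initiation and convertase genes were higher in pEGFR-Hi and 1 was lower, 0 of 2 genes of the alternative pathway and C5 and 0 of 6 terminal complex genes were called, 2 of 14 regulators were higher in pEGFR-Lo, and 1 of 10 receptors was higher in pEGFR-Lo. For the terminal complex limma gave 1 gene, toward pEGFR-Hi, at an unadjusted p under 0.05 and SAM called 0. For the alternative pathway both counts were 0. Of all genes 23% had such an unadjusted p toward pEGFR-Hi and 19.8% toward pEGFR-Lo.

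Within the classical pathway, the genes called higher in pEGFR-Hi were those for *C2*, the protease that joins C4b in the convertase, and *C1ra*, the protease C1r. *C2* had a lowest, median and highest value of 5.49, 5.84 and 6.25 in pEGFR-Hi and 3.96, 4.59 and 5.35 in pEGFR-Lo. The groups were apart, the difference was 1.25 (0.79 to 1.71) or 2.38-fold, and the adjusted p was 2.23e-04. *C1ra* had 6.11, 6.46 and 6.77 against 4.52, 5.26 and 6.17, with pEGFR-Lo replicate 4 inside the pEGFR-Hi range. Its difference was 1.04 (0.55 to 1.54) or 2.06-fold at an adjusted p of 0.00195, and probes shared with *C1rb* could not be told apart from its own. Without pEGFR-Lo replicates 3 and 6 neither was a call, *C2* at 0.96 (adjusted p 0.00111) and *C1ra* at 0.77 (adjusted p 0.0104). *C1ra* also lost its call without pEGFR-Hi replicate 2, pEGFR-Hi replicate 5, pEGFR-Lo replicate 1 or pEGFR-Lo replicate 6, with differences of 0.99, 0.97, 0.98 and 0.87. The partner protease gene *C1s1* read 3.75 ± 0.96 and 2.99 ± 0.31, under background in the mean of both groups, with 2 pEGFR-Hi arrays above it.

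The genes higher in pEGFR-Lo were a lectin pathway protease, a pair of regulators and a receptor. *Masp1*, which encodes a protease of the lectin pathway, ran from 3.82 over 3.99 to 4.46 in pEGFR-Hi and from 4.72 over 5.81 to 6.58 in pEGFR-Lo, at least 3.02-fold (adjusted p 7.26e-05), the bound being set by the background level. *Susd4*, a regulator with sushi domains, ran from 4.03 over 4.47 to 4.57 and from 7.16 over 7.53 to 7.84, 8.63-fold (adjusted p 3.52e-11). Its groups were each within a narrow range and far apart. *Clu*, which encodes clusterin, an inhibitor of the terminal complex and an abundant astrocyte product, ran from 7.70 over 8.18 to 8.90 and from 9.13 over 9.44 to 10.15, 2.56-fold (adjusted p 4.72e-05). *Cd93*, first described as a C1q receptor, ran from 3.85 over 4.38 to 4.70 and from 7.24 over 9.84 to 10.52, 35.0-fold (adjusted p 1.22e-07). All 4 kept their call without pEGFR-Lo replicates 3 and 6. A further pair had groups that did not overlap at under 2-fold: *C1qbp*, a mainly mitochondrial protein named for binding C1q, was 1.36-fold higher in pEGFR-Hi (10.21 ± 0.13 against 9.76 ± 0.11), and the sushi domain gene *Csmd2* was 1.42-fold higher in pEGFR-Lo (4.73 ± 0.22 against 4.23 ± 0.14). In all, 2 of the 45 had no overlap with pEGFR-Hi above and 5 with pEGFR-Lo above, beside 12.2% and 11.1% of all genes.

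CD93 is also an endothelial protein and clusterin an astrocyte product, so markers of those cells are given beside them. Of 10 measured endothelial markers 0 were called by either limma or SAM (1 in each direction had an unadjusted p under 0.05), 3 were above background, and the mean per array ran from 3.48 to 3.83 in pEGFR-Hi and from 3.58 to 3.86 in pEGFR-Lo. In limma *Flt1* (difference 0.83, adjusted p 8.84e-05) and *Emcn* (-0.92, adjusted p 0.00252) passed the adjusted p limit and missed only 2-fold. *Emcn* was under background in the mean of both groups. Of 9 astrocyte markers 1 was called toward pEGFR-Hi and 4 toward pEGFR-Lo, 7 were above background, and the mean per array ran from 5.94 to 6.28 and from 7.18 to 7.59. Over all genes the shares called were 3.99% and 5.06%. Of 6 oligodendrocyte and 9 neuron markers 0 were called by either tool, and 1 and 4 lay toward pEGFR-Lo and 0 toward pEGFR-Hi when the p was left unadjusted at 0.05. At that unadjusted limit 23% of all genes lay toward pEGFR-Hi and 19.8% toward pEGFR-Lo. Among the neuron markers *Snap25* (-0.82, adjusted p 1.08e-06) and *Gad1* (-0.52, adjusted p 0.00252) passed the adjusted p limit in limma and missed only 2-fold. The part of such cells in the *Cd93* and *Clu* values was not tested.

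The anaphylatoxin receptors and complement receptor 3 were at the floor in both groups. *C3ar1*, the C3a receptor gene, read 3.13 ± 0.11 and 3.15 ± 0.28, *C5ar1*, the C5a receptor gene, 2.85 ± 0.11 and 2.84 ± 0.28, and *Itgam*, the CD11b chain of complement receptor 3, 2.91 ± 0.12 and 2.81 ± 0.16. None of them passed the background level on any array. *Cr1l*, the mouse gene for the convertase regulator Crry, was well above background and not called, at 7.44 ± 0.14 and 7.56 ± 0.22 (difference -0.12, -0.34 to 0.11). *Cd46*, a cofactor for factor I that in mice is largely a testis product, read 2.80 ± 0.17 and 2.75 ± 0.37.

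**Figure D3:**
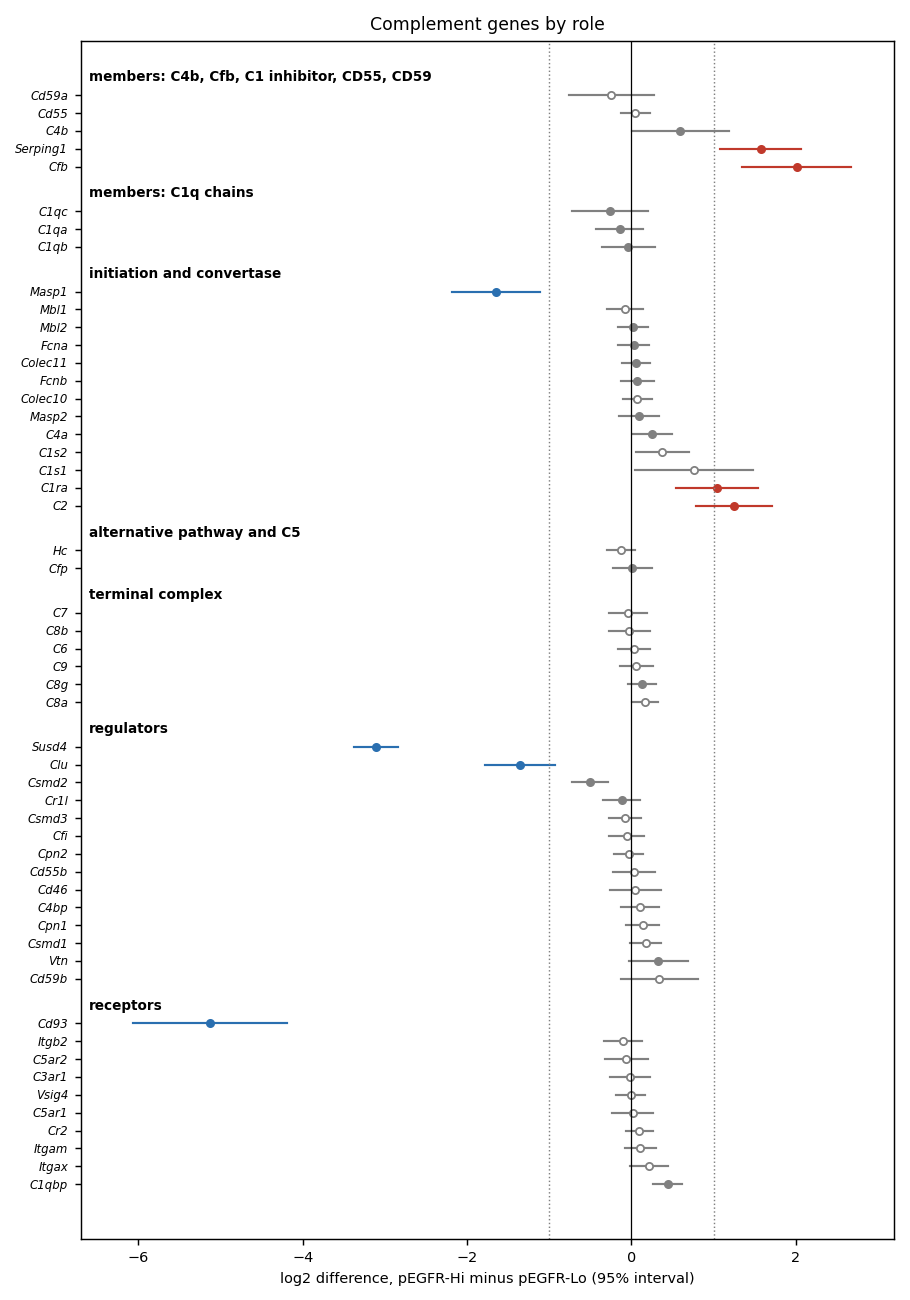
Log2 difference of means, pEGFR-Hi minus pEGFR-Lo (horizontal axis), with its 95% interval for the 8 members and the 45 other complement genes, ordered by role. Red points are called higher in pEGFR-Hi, blue points higher in pEGFR-Lo, grey points are not called, open points are genes not above background, and dotted lines mark 2-fold. The 4 red genes are *Cfb*, *Serping1*, *C2* and *C1ra*, and *Cd93* and *Susd4* lie farthest to the pEGFR-Lo side at -5.13 and -3.11.

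Several complement genes are known interferon targets, and interferon-stimulated genes were therefore placed beside them. Of 34 measured, limma called 26 higher in pEGFR-Hi and 0 higher in pEGFR-Lo, beside 3.99% and 5.06% of all genes. SAM gave 28 and 0, beside 4.02% and 5.06%. An unadjusted p under 0.05 gave 32 and 0, beside 23% and 19.8%. Their median difference was 1.56, and 1.05 without pEGFR-Lo replicates 3 and 6. The mean over the 34 ran from 8.38 to 9.25 in pEGFR-Hi, and in pEGFR-Lo it was 7.58, 7.69, 5.84, 7.55, 7.23 and 5.81 in replicates 1 to 6. Replicates 3 and 6 were set apart by these same genes, which fixes that they were lowest in this mean. They were also the mice lowest in *Serping1*, *C4b* and *C2*. In *C1ra* replicate 6 was lowest (4.52), and replicate 1 (5.11) lay below replicate 3 (5.19). For *Cfb* replicate 3 was also lowest (5.55) and replicate 6 (5.59) was not, with replicate 1 at 5.58. Without replicates 3 and 6, 18 of the 34 were called higher in pEGFR-Hi, beside 3.7% of all genes. *Irf7*, the interferon regulatory factor induced by type I interferon, ran from 8.57 over a median of 8.83 to 9.81 and from 4.57 over 6.28 to 6.81, 8.29-fold (adjusted p 2.71e-06). *Irf1*, induced by interferon gamma through a GAS, read 9.28 ± 0.19 and 8.38 ± 1.16 and was not called (adjusted p 0.0923). Its difference of 0.90 became 0.16 (-0.11 to 0.43) without replicates 3 and 6, whose values were 6.97 and 6.83. *Isg15* was not analysed here. The part of interferon in the complement values was not tested.

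**Figure D4:**
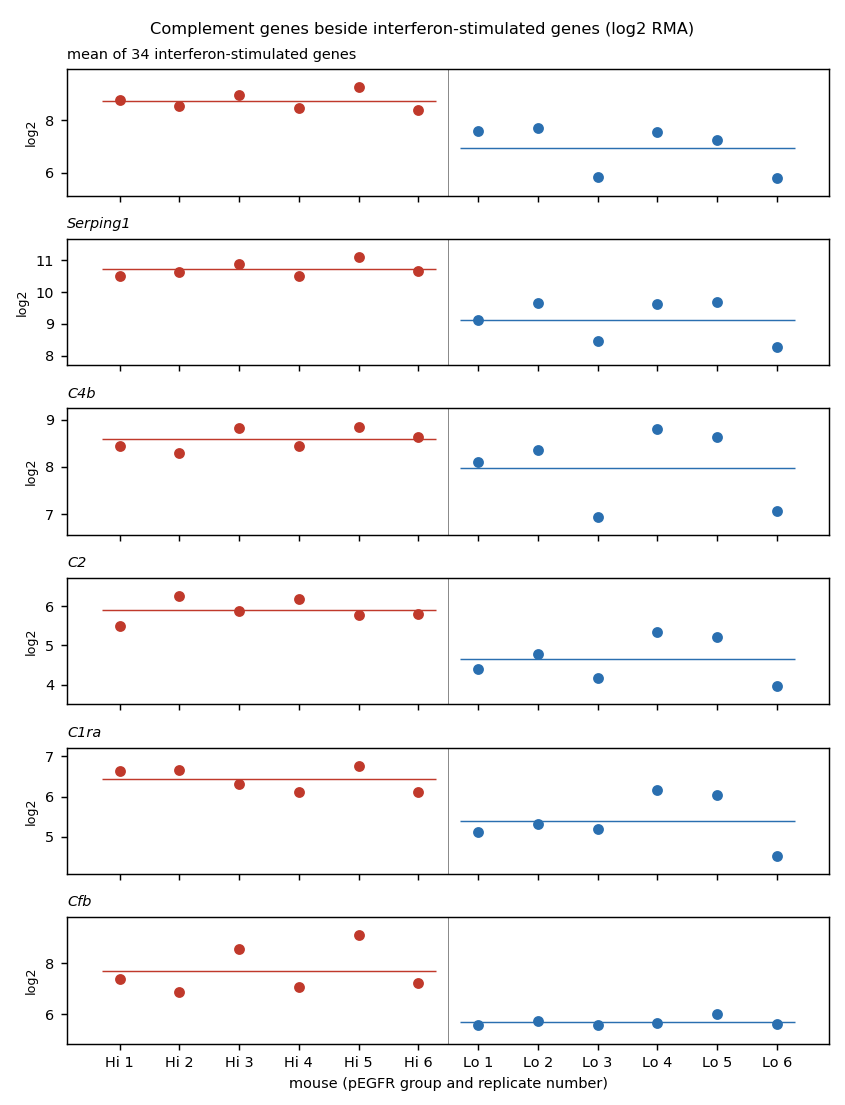
Mean log2 RMA value of the 34 interferon-stimulated genes (top panel) and log2 RMA values of *Serping1*, *C4b*, *C2*, *C1ra* and *Cfb* (lower panels, each with its own vertical range) in the 12 mice named on the horizontal axis. Points are mice and lines are group means. pEGFR-Lo replicates 3 and 6 are lowest of all mice in the top panel, in *Serping1*, in *C4b* and in *C2*, and pEGFR-Hi replicates 5 and 3 are highest in the top panel and in *Cfb*.

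Genes whose profile over the 12 arrays was most like that of the called members were looked up by the root mean square difference of mean-centred log2 values, among 13518 genes above background. Nearest to *Cfb* were *Oas2*, an interferon-induced oligoadenylate synthetase (0.35), *Mx1*, an interferon-induced GTPase (0.40), and *Ccdc122* (0.42). Nearest to *Serping1* were *Tspo*, a mitochondrial outer membrane protein (0.19), *Tcirg1*, a subunit of the vacuolar proton pump (0.23), and the interferon-induced *Ifi35* (0.26). All 6 were higher in pEGFR-Hi, by 1.25 to 2.43, which the likeness to a called member fixes.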

How the data were processed

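Groups and replicate numbers came from the sample labels. Members and gene lists were chosen with earlier results of these data known. The authors deposited log2 values made by RMA (background correction, quantile normalization and a summary per probe set) in Affymetrix Expression Console, whose version and genome build are not given in the sources used here. Of 35556 probe sets, 21789 had 1 gene symbol, 1621 several and 12146 none. Only those with 1 were named, and 21698 of these were matched by Entrez ID to RefSeq names of GRCm38.p6, with 0 symbols changed. For 999 genes with over 1 probe set the brightest by mean over all 12 arrays was used, which left 19938 genes, 13519 above background. No value was missing and 0 pairs of arrays were identical.

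limma 3.58.1 (functions lmFit and eBayes, no covariates) was run in R 4.3.3 with data.table (version 1.17.8), after the code was tested on simulated data. Calls needed a Benjamini-Hochberg adjusted p under 0.01 and 2-fold, after the 1% false discovery rate and 2-fold used with SAM in the study. SAM with 100 permutations was an alternative, as were centring on array medians, quantile normalization run again, a filter on dim genes, array weights, robust eBayes with a trend, averaging the probe sets of a gene, a looser limit (0.05, any fold), the replicate number as a block, and leaving out each array. Leaving out pEGFR-Lo replicates 3 and 6 together was chosen after seeing the data. Intervals are 95%. A fold against a group mean under background is a bound set at the background level. Figures were drawn with matplotlib 3.10.9 in Python 3.11.15 and pandas 2.3.3.

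Named genes are all members, every called complement gene, the receptors and regulators *C3ar1*, *C5ar1*, *Itgam*, *Cr1l*, *Cd46* and *Clu* whether called or not, defining markers of microglia, *Irf7*, *Irf1* and *Isg15*, *Cdkn2a*, 3 progenitor markers and the 3 nearest profiles of each called member. *C4a*, *C1s1*, *C1qbp*, *Csmd2*, *Cd68*, *Cd14*, *Laptm5*, *Flt1*, *Emcn*, *Snap25* and *Gad1* were named after their values were seen. The same holds for *Fabp7*, *Fcer1g*, *Lyz2*, *Ctss*, *Spi1*, *Ly86*, *Cd163*, *P2ry13* and *Fcrls*. Some listed genes are not reported here.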

Additional observations from a re-analysis of the deposited data

Results flagged for a closer look

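Single mice were set against the other 5 of their group for 36 items in both groups. The items were single genes and the means of the interferon-stimulated genes, the microglia and macrophage markers and the C1q chains. Of the 72 sets, 6 had 1 mouse far from the rest by Dixon's gap ratio at the 95% level. Chance gives about 1 in 20. None of the 6 was a complement gene. In pEGFR-Hi, replicate 2 had the lowest *Csf1r* (3.254, the nearest other at 3.55) and the lowest *Trem2* (4.68258, the nearest at 5.04). Replicate 5 had the highest *Aif1* (3.67031, the nearest at 3.46), under background like the rest of its group. Replicate 3 had the highest *P2ry12* (5.60219, the nearest at 4.62), still under every pEGFR-Lo value of that gene. In pEGFR-Lo, replicate 1 had the lowest *Ptprc* (2.62085, the nearest at 2.86), also under background. Replicate 3 had the highest *Cdkn2a* (5.62834, the nearest at 5.35).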

How the results depend on the processing

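The calls of *Cfb* and *Serping1* and the absence of a member called higher in pEGFR-Lo held under all alternatives run, and so did the 4 complement genes called higher in pEGFR-Lo. The number of other complement genes called higher in pEGFR-Hi, 2, was 1 with array weights, 0 with pEGFR-Lo replicates 3 and 6 left out together, and 1 to 2 with single arrays left out. *C1ra* lost its call with array weights (0.99), with the 2 arrays left out together and without any of 4 single arrays, and *C2* with the 2 arrays left out. With an adjusted p under 0.05 and no fold limit, 4 microglia and macrophage markers passed toward pEGFR-Hi and 3 toward pEGFR-Lo. Of all 19938 genes, 3871 and 3314 passed at that limit. The cause was not tested.

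Differences that changed sign were all small and not called. Array medians gave 0.0056 and array weights 0.014 for *C3ar1*, and quantile normalization run again gave 0.0036 for *C1qb* and 0.022 for *Trem2*. Without pEGFR-Lo replicates 3 and 6 the values were 0.00071 for *C3ar1*, -0.043 for *C5ar1*, 0.0080 for *Cd59a*, 0.064 for *Aif1* and 0.016 for *Trem2*. With single arrays left out the ranges were -0.12 to 0.049 for *C3ar1*, -0.075 to 0.070 for *C5ar1*, -0.14 to 0.035 for *C1qb*, -0.082 to 0.038 for *Trem2*, -0.048 to 0.17 for *Cd46* and -0.027 to 0.12 for *Nes*.

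The labels do not say whether mice with the same replicate number were handled together. Correlations of same-numbered deviations ran from -0.137 to 0.0974, with 0 of 6 over 0.1. They show no pairing but cannot exclude a weak one. With the replicate block 801 genes were called toward pEGFR-Hi and 1008 toward pEGFR-Lo, against 795 and 1009 without it. The block left 2 members called toward pEGFR-Hi and 0 toward pEGFR-Lo, and changed no call of a gene named here. Genes near background have compressed differences, and the signal over background limits what *Cd55*, *Cd59a* and the C1q chains can show. Each group is 1 line, so the p-values measure the spread between mice and not between lines.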
